A study of Mus musculus with 3 samples.

Results

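The matrix metalloproteinases, the ADAM and ADAMTS proteases and the TIMP inhibitors were described in NIH3T3 fibroblasts, an established line of mouse embryonic fibroblasts. Members were taken by gene symbol (*Mmp*, *Timp*, *Adam*, *Adamts* and *Adamtsl* followed by a number), which gave 66 of the 15554 genes in the table. These were 24 *Adam*, 21 *Mmp*, 14 *Adamts*, 4 *Timp* and 3 *Adamtsl* genes. A member was called expressed when its FPKM averaged 1 or more across the 3 libraries, and 23 members met this criterion, against 9226 genes in the whole table. FPKM scales the fragments of a gene by the length of its transcript and by the depth of the library, so levels can be compared between genes.

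All cells were first starved of serum for 24 h and then kept in fresh serum-free IMDM for another 24 h, either without stimulation (CTRL), with GDF15 (100 ng/mL) or with TGF-β (4 ng/mL). The RNA of 3 samples was pooled for each treatment, and 1 stranded mRNA library was sequenced from each pool. Because there is 1 library per treatment, no difference given here has a replicate check and no test between treatments was possible. GDF15 belongs to the same superfamily of ligands as TGF-β, and the study asked whether it acts on these fibroblasts as TGF-β does.

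Matrix metalloproteinases cleave collagens, gelatin, proteoglycans and other matrix proteins outside the cell or at its surface, and TIMP proteins bind and block their active sites. ADAM proteases are membrane-bound and release the outer parts of growth factors, cytokines and adhesion molecules, although several family members lack a functional active site. ADAMTS proteases are secreted, carry thrombospondin repeats, and act on procollagens and on large proteoglycans such as versican and aggrecan, and fibroblasts are a main source of many of these enzymes.

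The active proteases share a short zinc-binding site, in which 3 histidines hold the zinc ion and a glutamate takes part in catalysis. The coding sequence of this site is shown for the members described most below, because it is the feature that joins the 3 enzyme families and separates active from inactive ADAM proteins. Sequences are 33 bases long, 5′ to 3′ on the coding strand (GENCODE M21, GRCm38), and capitals mark the codons of the 3 histidines and of the glutamate.
Mmp2: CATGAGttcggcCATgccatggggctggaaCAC
Mmp14: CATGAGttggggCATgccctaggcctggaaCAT
Mmp9: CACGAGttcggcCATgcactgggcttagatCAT
Mmp19: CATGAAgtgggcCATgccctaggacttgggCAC
Adam9: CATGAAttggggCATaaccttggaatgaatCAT
Adam10: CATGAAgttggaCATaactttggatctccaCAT
Adam12: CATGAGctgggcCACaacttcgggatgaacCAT
Adamts5: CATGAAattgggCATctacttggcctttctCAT
Adamts10: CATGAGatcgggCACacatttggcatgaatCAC
The sites of *Mmp2* (chr8:92839279-92839311, plus strand), *Mmp14* (chr14:54437627-54437659, plus strand), *Mmp9* (chr2:164951133-164951165, plus strand), *Mmp19* (chr10:128795673-128795705, plus strand), *Adam9* (chr8:24990326-24990358, minus strand) and *Adam12* (chr7:133961158-133961190, minus strand) each lie within 1 coding exon. Those of *Adam10* (chr9:70754296-70761585, plus strand), *Adamts5* (chr16:85878015-85887826, minus strand) and *Adamts10* (chr17:33538157-33538279, plus strand) are joined from 2 exons. Among the 24 *Adam* genes, 15 coded for the site and 6 of these 15 were expressed. None of the 9 *Adam* genes without it (*Adam2*, *Adam5*, *Adam7*, *Adam11*, *Adam18*, *Adam22*, *Adam23*, *Adam29* and *Adam32*) reached a mean FPKM of 1.

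The libraries showed the markers of fibroblasts. All 10 fibroblast markers were expressed, with summed FPKM between 16069 and 18551 in the 3 libraries. None of the 5 epithelial or 4 endothelial markers reached a mean FPKM of 1, with summed FPKM from 0.268 to 0.735 and from 0.252 to 0.329, and *Epcam* was listed at 0 in all 3 libraries. Of 4 leukocyte markers, 3 were in the table under these symbols and *Cd68* was expressed, at 1.66 FPKM in CTRL, 1.14 with GDF15 and 1.67 with TGF-β. *Acta2*, smooth muscle actin, was at 20.4, 73.6 and 96.1 FPKM in the same order, and *Ctgf* at 9.03, 41.3 and 77.3. The paper reports both among the genes that GDF15 changed, *Ctgf* from these same libraries. They are thus no independent check of the stimulation. The steps between low FPKM values gave an estimated depth, in units of 1e6 fragments, of 16.9 in the CTRL library, 19.8 in the GDF15 library and 16.1 in the TGF-β library.

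The expressed members were led by inhibitors and by the gelatinase *Mmp2* with its activator. Mean FPKM was 333 for *Timp2*, 260 for *Mmp2*, 220 for *Timp3*, 205 for *Mmp14*, 109 for *Timp1* and 103 for *Adam15*. *Adam9* was next at 59.1. At the lower end, *Adam8* and *Mmp9* were just inside the criterion with means of 1.05 and 1.01, and *Adam12* and *Adam11* were just outside it with 0.640 and 0.612. The 23 expressed members thus spanned a range from 1.01 to 333 in mean FPKM, and *Timp2* was the highest of them in each library.

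**Figure D1:**
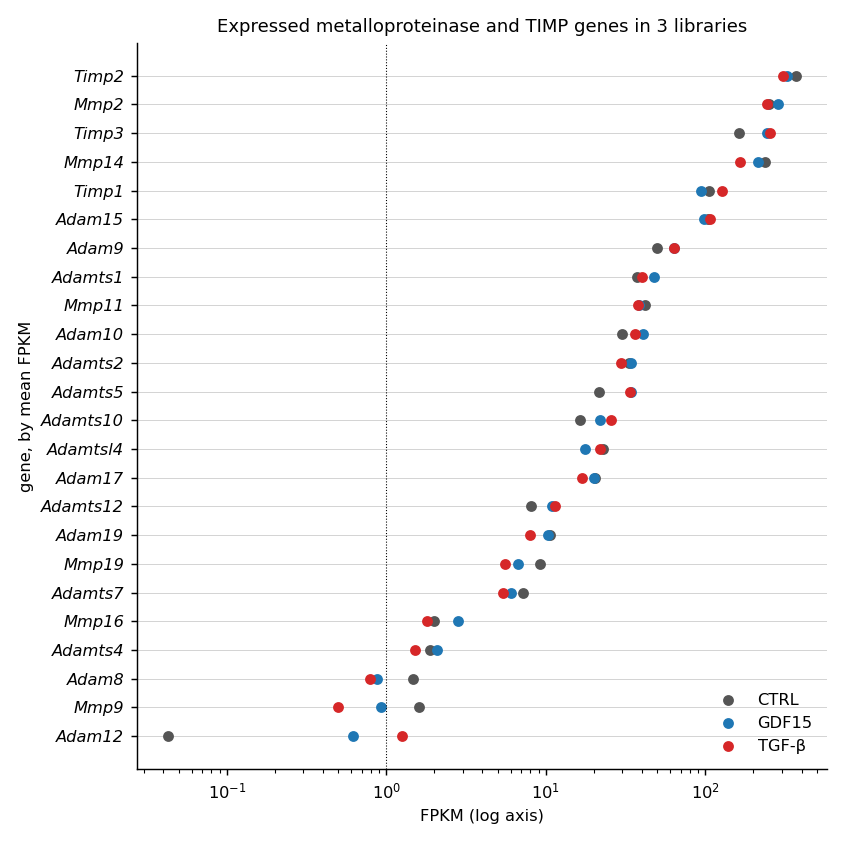
FPKM on a log axis of the 23 expressed members and of *Adam12* in the CTRL, GDF15 and TGF-β libraries (1 pooled library each), ordered by mean FPKM, with a dotted line at 1 FPKM. *Adam12* is at 0.0429 in CTRL, 0.619 with GDF15 and 1.26 with TGF-β.

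Changes are differences of log2(FPKM + 1), a scale that understates the change of low genes. A change was counted past 1.5-fold beyond 0.585 and past 2-fold beyond 1 on this scale. As no replicate error exists, the local spread is given in its place, which is a robust standard deviation of the changes among genes of like expression. None of the 23 expressed members was past 2-fold in any comparison on this scale, but *Mmp9* was past 2-fold and lower by TGF-β with pseudocounts of 0.5, 0.1 and none. Of all genes, 0.347% were past 2-fold and higher by GDF15 and 0.13% lower, 0.932% were higher by TGF-β and 0.553% lower, and 0.13% were higher and 0.0325% lower in TGF-β than in GDF15. By GDF15, 2 of 23 members (8.7%) were past 1.5-fold and higher, *Timp3* and *Adamts5*, against 1.27% of all genes, and 0 were lower against 1.55%. By TGF-β, 3 members (13%) were past 1.5-fold and higher, *Timp3*, *Adamts5* and *Adamts10*, against 2.54% of all genes. With the trend by transcript length and GC content removed, the counts of higher members were 0 by GDF15 and 2 by TGF-β. TGF-β also had 2 members (8.7%) past 1.5-fold and lower, *Mmp9* and *Mmp19*, against 3.06%. *Mmp9* met the criterion of expression only through CTRL, the library where it was highest, and with a minimum mean FPKM of 2 the count was 1.

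Between TGF-β and GDF15, 0 members were past 1.5-fold in either direction, against 0.91% of all genes higher and 0.629% lower in TGF-β. The median change of the members was -0.02 by GDF15 and -0.09 by TGF-β, beside -0.03 and -0.07 over all genes. With the length and GC trend removed, these medians were 0.02 and -0.07, beside -0.03 and -0.08 over all genes. Between TGF-β and GDF15, the median before removal of the trend was -0.14 beside -0.04. Both comparisons with CTRL share that library, so likeness between them is not independent. The counts of members are small, and 1 gene more or less moves them considerably.

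**Figure D2:**
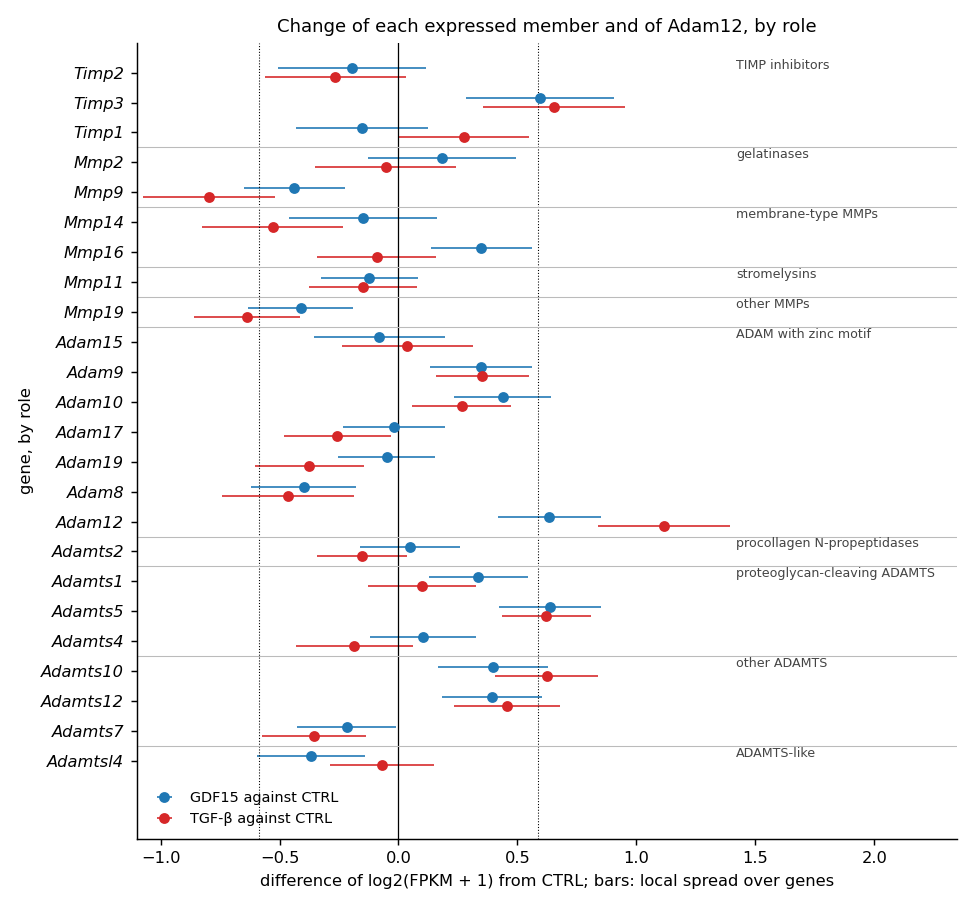
Difference of log2(FPKM + 1) from CTRL for the 23 expressed members and *Adam12*, grouped by role, for GDF15 and TGF-β. Bars are the local spread over genes of like expression, not a replicate error, and dotted lines mark 1.5-fold. *Timp3* and *Adamts5* lie beyond the upper line with both stimuli, and *Mmp9* and *Mmp19* lie beyond the lower line with TGF-β.

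Among the inhibitors, *Timp3* was higher in both stimulated libraries. *Timp3*, which binds to the matrix and inhibits several ADAM and ADAMTS proteases besides MMPs, was at 161 FPKM in CTRL, 244 with GDF15 and 254 with TGF-β. Its change was 0.60 by GDF15 (local spread 0.31) and 0.65 by TGF-β (local spread 0.30). The values of both stimulated libraries were close to each other and well above CTRL. Exons of *Timp3* (chr10:86300372-86349506, plus strand) overlap those of *Syn3* on the opposite strand over 1733 bases, and whether the counting used strand is not stated. *Syn3* itself was at 0.361, 0.455 and 0.477 FPKM.

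*Timp2*, which besides inhibition forms a complex with *Mmp14* protein that activates the *Mmp2* proenzyme, was at 370 FPKM in CTRL, 323 with GDF15 and 308 with TGF-β. Its changes, -0.20 and -0.27, were within the local spreads of 0.31 and 0.30. *Timp1*, the secreted inhibitor induced in many tissues under repair, was at 105, 94.3 and 127 FPKM. The 2 stimuli differed for *Timp1*: its change was -0.15 with GDF15 and 0.28 with TGF-β, a difference of 0.43 with a local spread of 0.17. With the trend by transcript length and GC content removed, the *Timp1* change by GDF15 was 0.09, and the difference between the stimuli 0.29. *Timp4* was listed at 0 in all 3 libraries.

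The gelatinases were unequal in level. *Mmp2*, which cleaves gelatin and basement membrane collagen, was at 251 FPKM in CTRL, 286 with GDF15 and 242 with TGF-β, with changes of 0.18 and -0.05 and local spreads of 0.31 and 0.30. With the running median by expression removed, its changes were 0.30 and -0.01. *Mmp9*, the other gelatinase, was at 1.60, 0.921 and 0.496 FPKM. Its change was -0.44 with GDF15 and -0.80 with TGF-β, with local spreads of 0.21 and 0.28. Behind these *Mmp9* values stood an estimated 86 fragments in CTRL, 58 with GDF15 and 25 with TGF-β. The ratio to CTRL was 0.576 for GDF15 (exact 95% interval 0.406 to 0.813) and 0.305 for TGF-β (0.187 to 0.481). Such intervals, here and below, cover counting error only and not the spread between cultures. *Mmp9* was thus low in every library and lowest in TGF-β.

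Of the 6 membrane-type MMP genes, 2 were expressed. *Mmp14*, the main collagen-degrading MMP of the fibroblast surface, was at 238 FPKM in CTRL, 214 with GDF15 and 164 with TGF-β. By TGF-β its change was -0.53 (local spread 0.30), and TGF-β was below GDF15 by a change of -0.38 (local spread 0.17). *Mmp16* went apart, at 1.99, 2.81 and 1.81 FPKM, with a change of 0.35 by GDF15 and -0.09 by TGF-β, or 0.16 and -0.21 with the length and GC trend removed. GDF15 was the highest library for *Mmp16* and CTRL the highest for *Mmp14*, and TGF-β was the lowest for both. *Mmp15*, *Mmp17*, *Mmp24* and *Mmp25* had mean FPKM below 0.1.

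*Mmp11*, stromelysin-3, was near the same level in the 3 libraries, at 41.9, 38.4 and 37.6 FPKM. *Mmp19*, a widely expressed MMP of basement membrane substrates, was at 9.18 FPKM in CTRL, 6.66 with GDF15 and 5.55 with TGF-β. Its change was -0.41 with GDF15 and -0.64 with TGF-β, with a local spread of 0.22 for both. Exons of *Mmp19* overlap *Tmem198b* on the opposite strand over 789 bases. Leaving out *Mmp9*, which met the criterion of expression only through CTRL, the 5 other expressed MMP genes were lower in TGF-β than in CTRL, where 37.2% of all genes were higher, but *Mmp2* was 0.01 higher once the libraries were scaled to a common upper quartile. The changes of *Mmp2*, *Mmp11* and *Mmp16* by TGF-β were within their local spreads, and the counting interval of *Mmp16* (0.722 to 1.14) included a ratio of 1. All 6 expressed MMP genes were lower in TGF-β than in GDF15, by -0.03 for *Mmp11* to -0.44 for *Mmp16*, while 39.7% of all genes were higher in TGF-β in that comparison.

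The summed FPKM of all TIMP genes was 636 in CTRL, 661 with GDF15 and 689 with TGF-β, while that of all MMP genes was 545, 550 and 453. The total FPKM of the libraries also differed. As shares of it, TIMP genes made up 0.192%, 0.216% and 0.222%, and MMP genes 0.164%, 0.179% and 0.146%. The ratio of the sums was 1.17 in CTRL, 1.203 with GDF15 and 1.52 with TGF-β. The GDF15 library was close to CTRL in this ratio, and the TGF-β library stood above both. *Timp3* made up 25.3% of the TIMP sum in CTRL, 36.9% with GDF15 and 36.9% with TGF-β. *Mmp2* and *Mmp14* together made up 89.8%, 91.0% and 89.8% of the MMP sum. Their ratio, *Mmp2* to *Mmp14*, was 1.06 in CTRL, 1.33 with GDF15 and 1.47 with TGF-β. The sums describe mRNA, and say nothing of protein or of enzyme activity.

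**Figure D3:**
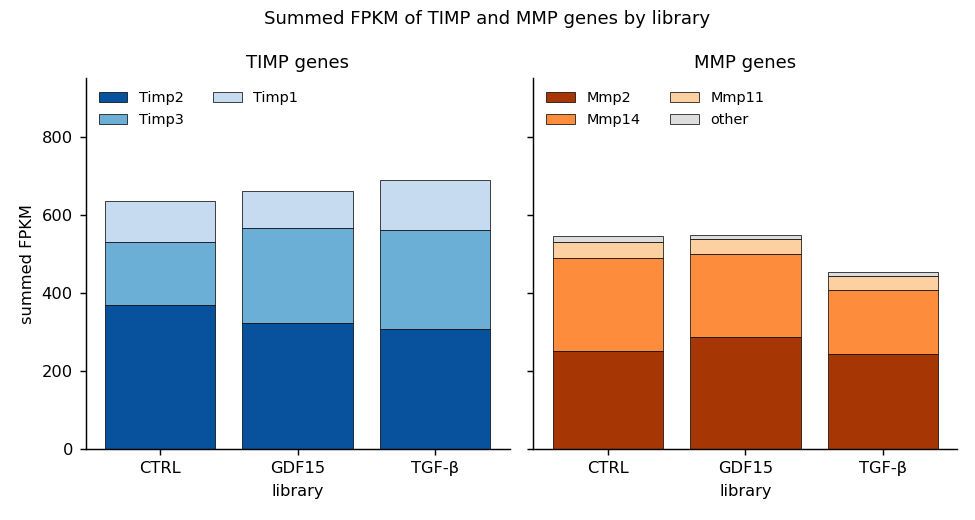
Summed FPKM of TIMP genes (left) and MMP genes (right) in each of the 3 libraries, stacked by gene and with the vertical axis starting at 0. The TIMP sum goes from 636 in CTRL to 689 in TGF-β with a larger *Timp3* segment in both stimulated libraries, and the MMP sum is smallest in TGF-β at 453.

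Expressed ADAM genes were *Adam15*, *Adam9*, *Adam10*, *Adam17*, *Adam19* and *Adam8*, and none was past 1.5-fold on the log2(FPKM + 1) scale. *Adam10*, which sheds Notch receptors, cadherins and other surface proteins, was at 29.8 FPKM in CTRL, 40.7 with GDF15 and 36.0 with TGF-β. Its change was 0.44 with GDF15 and 0.27 with TGF-β, or 0.26 and 0.15 with the length and GC trend removed. *Adam9*, another membrane-anchored sheddase, was at 49.8, 63.6 and 63.9 FPKM, and both changes were 0.35 with local spreads of 0.22 and 0.20. The *Adam10* and *Adam9* values were thus higher in both stimulated libraries than in CTRL.

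*Adam17*, the TNF-α converting enzyme, was at 20.3, 20.0 and 16.8 FPKM, and *Adam19* at 10.7, 10.3 and 7.997. Exons of *Adam17* overlap those of *Iah1* on the opposite strand over 311 bases, and *Iah1* was at 42.3, 31.4 and 34.0 FPKM, above *Adam17* itself. For *Adam17* and *Adam19*, GDF15 was near CTRL, and TGF-β was lower, with changes of -0.26 and -0.38. *Adam15* differed little, at 104, 97.9 and 106 FPKM. *Adam8*, best known from leukocytes, was at 1.47 FPKM in CTRL, 0.874 with GDF15 and 0.791 with TGF-β, from an estimated 78, 54 and 40 fragments. Like *Mmp9*, it met the criterion of expression only through CTRL, where it was highest. Its change by TGF-β was -0.46, and past 1.5-fold with pseudocounts of 0.5, 0.1 and none. Its ratio to CTRL was 0.591 for GDF15 (0.410 to 0.847) and 0.539 for TGF-β (0.358 to 0.798). The leukocyte marker *Cd68*, at 1.14 to 1.67 FPKM, was lower in GDF15 but not in TGF-β, and its part in the *Adam8* values was not tested.

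*Adam12* did not meet the criterion of expression. It is a protease of mesenchymal cells, and its transcript was at 0.0429 FPKM in CTRL, 0.619 with GDF15 and 1.26 with TGF-β (chr7:133883199-134232146, minus strand). The estimated fragments, rounded to whole numbers, were 6, 94 and 156. CTRL was near the floor of 3 fragments, and both stimulated libraries were far above it. From these rounded fragments, the ratio to CTRL was 13.4 for GDF15 (exact 95% interval 5.92 to 37.4) and 27.3 for TGF-β (12.3 to 75.6), and TGF-β was 2.04 times GDF15 (1.57 to 2.66). On the log2(FPKM + 1) scale its change was 0.63 with GDF15 and 1.12 with TGF-β, or 0.52 and 1.06 with the length and GC trend removed.

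*Adam12* was singled out after its values were seen, and its mean FPKM of 0.640 came mostly from the stimulated libraries.

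**Figure D4:**
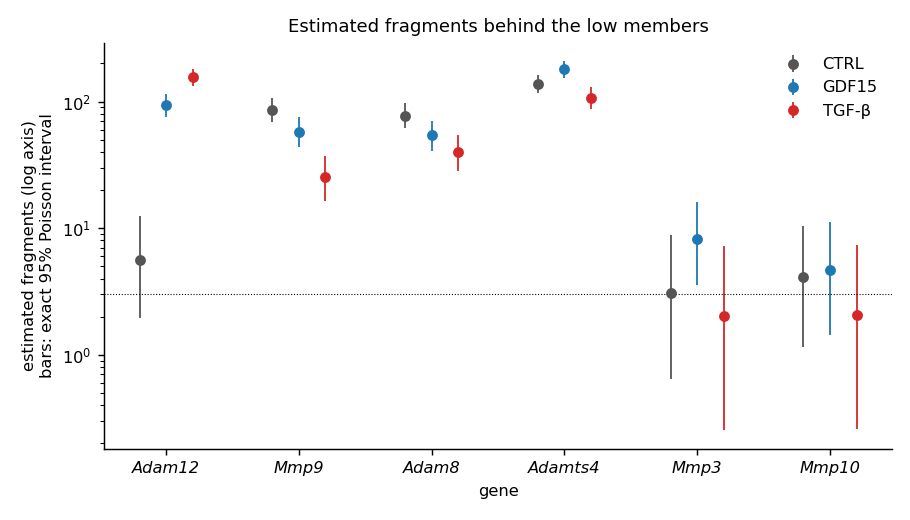
Estimated fragments on a log axis for 6 members of low level in the 3 libraries, with exact 95% Poisson intervals that cover counting error only and a dotted line at the floor of 3 fragments. *Adam12* goes from 6 fragments in CTRL to 94 with GDF15 and 156 with TGF-β, *Mmp9* and *Adam8* go the other way, and the intervals of *Mmp3* and *Mmp10* overlap in all 3 libraries.

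*Adamts5*, an aggrecanase that also cleaves versican, was at 21.5 FPKM in CTRL, 34.0 with GDF15 and 33.6 with TGF-β. Both stimulated libraries were at nearly the same level, with changes of 0.64 and 0.62 and local spreads of 0.21 and 0.19. With the length and GC trend removed, these changes were 0.39 and 0.47, short of 1.5-fold. *Adamts10*, which binds fibrillin microfibrils, was at 16.2, 21.7 and 25.5 FPKM, with changes of 0.40 and 0.62. *Adamts12*, a protease of cartilage and fibroblast matrix, was at 8.07, 10.9 and 11.4 FPKM, with changes of 0.39 and 0.46, or 0.22 and 0.36 with the length and GC trend removed. For these 3 genes CTRL was the lowest library, and the changes before removal of the trend were beyond the local spread, which was 0.19 to 0.23.

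*Adamts1*, which cleaves versican and aggrecan, was at 37.4 FPKM in CTRL, 47.4 with GDF15 and 40.0 with TGF-β, so that GDF15 was the highest library. *Adamts4*, the other classical aggrecanase, was at 1.86, 2.07 and 1.52 FPKM, and its intervals against CTRL included a ratio of 1 for both stimuli. *Adamts2*, which removes the N-propeptide of fibrillar procollagens, was at 33.1, 34.3 and 29.7 FPKM. *Adamts7* was lower in both stimulated libraries, at 7.17, 6.03 and 5.39 FPKM. *Adamtsl4*, a microfibril-associated ADAMTS-like protein with no protease domain, was at 22.9, 17.5 and 21.8 FPKM, with a change of -0.37 by GDF15 and -0.07 by TGF-β. Of the 7 expressed ADAMTS genes, 6 were higher by GDF15 and 4 by TGF-β, beside 44.4% and 37.2% of all genes, but *Adamts2* was at -0.01 by GDF15 once the length and GC trend was removed.

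Transcript length moved with the changes. Over 9194 genes, longer coding transcripts had larger changes, with Spearman's rho of 0.479 for GDF15 and 0.243 for TGF-β, and genes are not independent replicates. The median length was 3138.5 bases over all genes, 4044 over the expressed members, 3206.5 over the expressed MMP genes and 5379 over the expressed ADAMTS genes. With the trend by length and GC content removed, the GDF15 changes of *Timp3* and *Adamts5* were 0.49 and 0.39, so that 0 members remained past 1.5-fold and higher by GDF15. The TGF-β changes became 0.59 for *Timp3*, 0.47 for *Adamts5* and 0.68 for *Adamts10*, so that 2 members remained past 1.5-fold and higher by TGF-β. The changes of *Mmp9* and *Mmp19* by TGF-β became -0.75 and -0.65.

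The remaining 43 members were below a mean FPKM of 1. In all 3 libraries, 15 were listed at 0: *Adam2*, *Adam7*, *Adam18*, *Adam24*, *Adam25*, *Adam26a*, *Adam29*, *Adamts18*, *Adamts19*, *Adamts20*, *Mmp7*, *Mmp8*, *Mmp12*, *Mmp20* and *Timp4*. A further 17 had a mean below 0.1, namely *Adam21*, *Adam23*, *Adam28*, *Adam33*, *Adamts8*, *Adamts15*, *Adamts16*, *Adamtsl1*, *Adamtsl2*, *Mmp1a*, *Mmp1b*, *Mmp13*, *Mmp15*, *Mmp17*, *Mmp21*, *Mmp24* and *Mmp25*. The other 11 had a mean of 0.1 to 1, and beside *Adam12* and *Adam11* these were *Adam1a*, *Mmp23*, *Adamts13*, *Adam32*, *Adam5*, *Mmp3*, *Adam22*, *Adam1b* and *Mmp10*. None of the 4 collagenase genes (*Mmp1a*, *Mmp1b*, *Mmp8* and *Mmp13*) was expressed, and their summed FPKM was 0.0216 in CTRL, 0.0874 with GDF15 and 0.0310 with TGF-β. *Adam32*, which lacks the zinc site, had an estimated 11 fragments in CTRL, 1 with GDF15 and 9 with TGF-β. At this depth most of these low members gave intervals that include a ratio of 1, 21 of the 24 with any fragment for GDF15 and 23 of 25 for TGF-β against CTRL.

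Among the members of low level, 9 lay together in the genome and the other 34 lay elsewhere. *Mmp1a*, *Mmp1b*, *Mmp3*, *Mmp7*, *Mmp8*, *Mmp10*, *Mmp12*, *Mmp13* and *Mmp20* lie side by side within 427072 bases (chr9:7272514-7699585, GRCm38). Of these 9 genes 0 were expressed, 4 were listed at 0 in all 3 libraries, and the highest FPKM was 0.230, for *Mmp3* in GDF15. The estimated fragments of *Mmp3* were 3 in CTRL, 8 with GDF15 and 2 with TGF-β, and those of *Mmp10* were 4, 5 and 2, so that no difference was detectable at this depth.

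The promoters of this cluster were set beside those of the expressed members that have a RefSeq window. Among those without one were *Mmp2*, *Mmp9*, *Mmp16* and *Mmp19*, so that *Mmp11* and *Mmp14* alone stand for the expressed MMP genes. The 150 bases before the start site are shown for 3 cluster genes and for 3 expressed members, 5′ to 3′ on the strand of the gene (RefSeq, GRCm38.p6). Capitals mark matches, on either strand, to the AP-1 motif TGANTCA, the TATA box TATAAA and the GC box GGGCGG.
Mmp3: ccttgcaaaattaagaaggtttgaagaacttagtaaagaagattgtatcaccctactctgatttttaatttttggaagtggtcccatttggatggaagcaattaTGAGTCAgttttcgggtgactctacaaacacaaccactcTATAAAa
Mmp10: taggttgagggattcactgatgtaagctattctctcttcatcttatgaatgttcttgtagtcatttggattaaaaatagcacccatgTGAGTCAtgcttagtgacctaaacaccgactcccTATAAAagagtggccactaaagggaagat
Mmp13: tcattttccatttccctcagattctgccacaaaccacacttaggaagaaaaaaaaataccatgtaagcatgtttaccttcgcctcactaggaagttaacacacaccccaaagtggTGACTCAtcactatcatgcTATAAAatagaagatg
Mmp14: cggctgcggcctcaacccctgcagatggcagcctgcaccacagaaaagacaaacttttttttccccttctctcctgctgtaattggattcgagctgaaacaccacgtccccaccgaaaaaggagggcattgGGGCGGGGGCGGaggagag
Adam10: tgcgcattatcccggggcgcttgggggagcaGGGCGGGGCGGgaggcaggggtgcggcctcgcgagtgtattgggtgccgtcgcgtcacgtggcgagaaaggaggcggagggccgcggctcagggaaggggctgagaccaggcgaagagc
Timp1: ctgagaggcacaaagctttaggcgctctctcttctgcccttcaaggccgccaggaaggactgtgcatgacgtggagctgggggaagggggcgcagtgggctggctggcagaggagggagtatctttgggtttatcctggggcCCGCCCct
These stretches are chr9:7445672-7445821 (*Mmp3*), chr9:7502192-7502341 (*Mmp10*), chr9:7272364-7272513 (*Mmp13*), chr14:54431448-54431597 (*Mmp14*), chr9:70678832-70678981 (*Adam10*) and chrX:20870016-20870165 (*Timp1*), all on the plus strand. The 3 cluster genes each hold an AP-1 motif upstream of a TATA box and no GC box, and the 3 expressed members hold GC boxes alone.

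The motifs were counted in the 250 bases before the start site on both strands, for the members with a RefSeq window. A member with several start sites was counted when any of its windows held the motif, whereas the shares over all windows are per window. In the cluster, 8 of 9 members held TGANTCA, 7 held TATAAA, 5 held the Smad element CAGACA and 0 held GGGCGG. The CAGACA match of *Mmp7* was before its second start site, inside the gene. Among the expressed members 14 of 23 had a window (none for *Adam9*, *Adamts4*, *Adamts5*, *Adamts7*, *Adamts10* and the 4 MMP genes named above), and of these 12 held GGGCGG, 1 held TGANTCA (*Adam19*), 1 held TATAAA (*Adamts1*) and 0 held CAGACA. Of the 17 other members of low level with a window, 6 held GGGCGG, 2 held TGANTCA and 3 held TATAAA. Over all 32851 windows the shares were 32.7% for GGGCGG, 6.75% for TGANTCA, 12.4% for TATAAA and 17.1% for CAGACA. The cluster genes arose from duplications and are not independent of each other, and the motifs were chosen with the levels and sequences in view. A match is a description of the letters and not a site of binding.

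**Figure D5:**
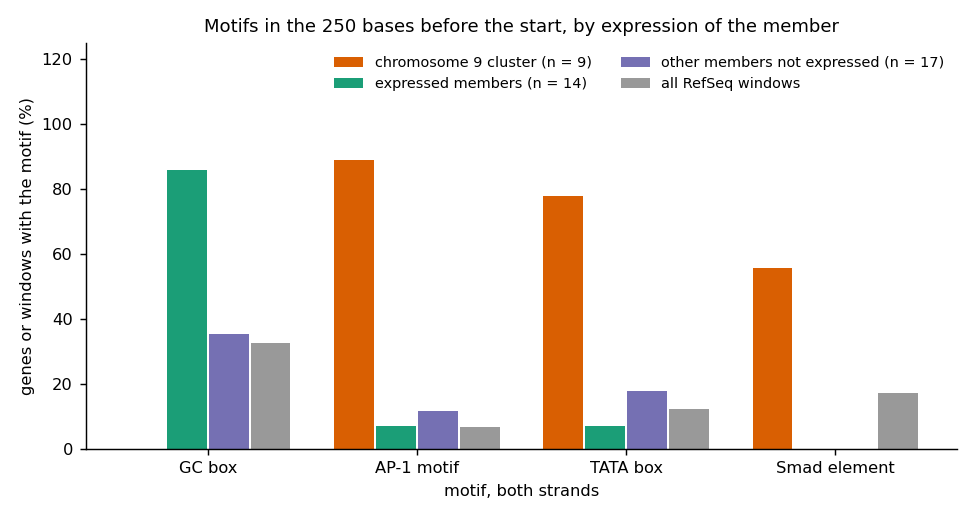
Percent of genes whose 250 bases before the start site hold each motif on either strand, for the chromosome 9 cluster (9 genes), the expressed members (14 genes), the other members of low level (17 genes) and all 32851 RefSeq windows. The GC box is found in 85.7% of the expressed members and in 0 of the cluster genes, and the AP-1 motif in 88.9% of the cluster genes.

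Genes that regulate these enzymes or are cut by them were taken from a list of 50, of which 49 were in the table and 25 were expressed. By GDF15, 3 of the 25 were past 1.5-fold and higher, *Fbn1*, *Thbs1* and *Vcan*, and 0 were lower, beside 1.27% and 1.55% of all genes. With the length and GC trend removed, the change of *Vcan* by GDF15 was 0.49 and no longer past 1.5-fold. By TGF-β, *Fbn1* and *Vcan* were higher and *Thbs2* was lower, beside 2.54% and 3.06% of all genes. Of these 25, 0 genes were past 2-fold by either stimulus. The median change was -0.03 by both stimuli, near that of all genes.

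*Fbn1*, fibrillin-1 of the microfibrils, was at 95.7 FPKM in CTRL, 163 with GDF15 and 184 with TGF-β. *Vcan*, the versican substrate of several ADAMTS proteases, was at 47.4, 80.04 and 81.1 FPKM, with changes of 0.74 and 0.76. Both of these substrates were lowest in CTRL, as *Adamts5* and *Adamts10* were. The thrombospondins, which take part in the uptake of *Mmp2* protein, were unlike each other. *Thbs1* was at 6.37, 11.4 and 8.20 FPKM, highest in GDF15, and *Thbs2* at 141, 150 and 91.0 FPKM, lowest in TGF-β.

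The inhibitor *Reck*, a membrane-anchored protein, was at 9.77, 11.7 and 9.53 FPKM. *Bsg*, the MMP inducer basigin, was at 287, 280 and 298 FPKM, and *Furin*, the convertase that activates membrane-type MMPs and ADAMs, at 24.2, 23.5 and 23.6. These 3 regulators had no change past 1.5-fold. *Bmp1*, the procollagen C-proteinase, was at 76.0, 67.4 and 59.0 FPKM, and its enhancer *Pcolce* at 419, 377 and 404, also with no change past 1.5-fold.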

How the data were processed

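Gene expression was measured by RNA-seq in 3 pooled libraries of NIH3T3 fibroblasts (CTRL, GDF15 and TGF-β). The table deposited by the authors gives FPKM from Cufflinks, based on single-end reads and limited to UniProt-reviewed protein coding genes. The submitters' processing notes name TopHat 1.3.2, Bowtie 0.12.9, Cufflinks 2.0.2 and mm10. The gene annotation and the use of strand in counting are not given in the sources used here. Libraries were matched to treatments by the treatment in the column name and sample title.

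Changes were computed as differences of log2(FPKM + 1). Counts and medians cover the genes whose FPKM averaged 1 or more. Fragments were estimated as FPKM × the length of the longest coding transcript × depth, where depth came from the steps of low FPKM in genes with a single coding transcript. Intervals are exact Poisson and exact conditional 95% intervals and cover counting error only. A pooled library hides the spread between its samples. Longer transcripts had larger changes, so changes less this length and GC trend are given for some of the members.

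Lengths, exons and coding sequences came from GENCODE M21 (GRCm38), in which 15474 of the 15554 genes and all 66 members were matched, 749 genes by an older symbol. Promoter windows came from RefSeq (GRCm38.p6) and, where printed, were trimmed where a GENCODE exon of the gene covered them. The members, roles and gene lists were chosen with earlier results of these data known. Every expressed member is named. Of the list of 50 related genes, those past 1.5-fold are named, together with *Reck*, *Bsg*, *Furin*, *Bmp1*, *Pcolce*, *Vcan* and *Thbs1*.

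Alternatives were pseudocounts of 0.5 and 0.1, no pseudocount, scaling to a common upper quartile, subtraction of the running median by expression, subtraction of the length and GC trend, and other minimum means. The scripts were tested on simulated data. Scripts ran in Python 3.11.15 (scipy 1.17.1, numpy 2.4.6, matplotlib 3.10.9, pandas 2.3.3). The qRT-PCR, tissue and serum measurements of the study were not analysed here.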

Additional observations from a re-analysis of the deposited data

How the results depend on the processing

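No paired analysis was possible because a treatment is represented by a single library, and leaving out a library was likewise not possible. Of the expressed members, 2 were past 1.5-fold and higher by GDF15, and 0 with the length and GC trend removed. A minimum mean FPKM of 0.5 or no minimum made it 3, adding *Adam12*. By TGF-β, the 3 higher became 2 with the trend removed, which took *Adamts5* out. They became 4 with those minimum settings, again adding *Adam12*. The 0 members lower by GDF15 became 2 (*Mmp9* and *Adam8*) with a pseudocount of 0.1 and 2 with none. The 2 members lower by TGF-β became 1 with upper quartile scaling, which took *Mmp19* out, and 1 with a minimum mean FPKM of 2, which took *Mmp9* out, and 3 with pseudocounts of 0.5, 0.1 and none, which added *Adam8*. Past 2-fold by TGF-β, the 0 members became 1 (*Mmp9*) with pseudocounts of 0.5, 0.1 and none, and 1 (*Adam12*) with a minimum of 0.5 and with no minimum. Between TGF-β and GDF15, the 0 lower members became 2 (*Mmp9* and *Mmp16*) with a pseudocount of 0.1 and 2 with none. Over all genes, the 143 lower by GDF15 became 230, 249, 94 and 58 with a pseudocount of 0.1, none, upper quartile scaling and the trend removed. The 117 higher by GDF15 became 179 with no pseudocount, and the 44 past 2-fold became 82 and 83 with a pseudocount of 0.1 and none. By TGF-β, the 282 lower became 431 and 445 under the same settings, and the 137 past 2-fold became 213 with none. Between the stimuli, the 58 lower became 90, 139 and 148 with pseudocounts of 0.5, 0.1 and none, and the 15 past 2-fold became 37 and 38 with 0.1 and none. Among related genes past 2-fold by TGF-β, the 0 became 1 with upper quartile scaling. Of 432 values of single genes, 411 moved by less than the local spread, 21 by more, and none of those past a threshold changed sign. Depth limits the members with few fragments, and the lack of replicates limits every comparison.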
